A study of Homo sapiens with 2 samples.

Results

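The cells described here are the S100A9-positive cells of tumour populations that carried the hashtag HTO2. A barcode was taken where HTO2 was 1 of the 2 highest of the hashtags HTO2 to HTO9, the second had 20 counts or more and at least 4 times the third, 500 genes or more were found, and at most 20% of the UMIs (counted molecules) were mitochondrial. Of 9083 barcodes, 2994 passed in all hashtag pairs and 1656 in the 5 pairs with HTO2. Of these 1656 cells, 135 had 1 S100A9 UMI or more and are called positive, and 1521 had none. S100A9 chose the cells, so its own values are a description.

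The library pooled 13 tumours of OVCAR5, an established human ovarian carcinoma line, grown in NSG mice that also lack B2m. NSG mice have few lymphocytes of their own while keeping myeloid cells. Every tumour carried an IFNg-sensing reporter, and CFP+ tumour cells were sorted from the pool. Per the description of the pool, cytokine was injected into 8 tumours and 5 were unexposed. TNFa (10 ng/ml, 6 h) went into 3 tumours, IFNg (100 ng/ml) together with the same TNFa dose into 2 for 6 h, and IFNg alone (100 ng/ml) into 2 for 24 h and 1 for 48 h. The unexposed tumours were 2, 2 and 1 at 6, 24 and 48 h. The treatment fields of the samples name a single condition each, which is at odds with that pool. No label ties a hashtag pair to a tumour, so no pair is called exposed or unexposed.

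S100A9 is a small calcium-binding protein that pairs with S100A8 to form calprotectin. Neutrophils and monocytes hold it in large amounts, and squamous and other epithelia make it in inflammation and in some carcinomas. The leukocyte gene PTPRC (CD45) and the macrophage and granulocyte gene LYZ (lysozyme) were read beside the epithelial genes EPCAM and KRT18. CFP+ cells of a human line were sorted and, per the processing notes, counted against GRCh38, whereas host leukocytes are mouse cells. Few host reads could be counted in human genes, so these markers describe the cells and cannot decide between the sources. S100A9 lies at chr1:153357854-153361027 on the plus strand (GRCh38, GENCODE 29), within the S100 cluster that also holds S100A8 (chr1:153390032-153391188), S100A2 (chr1:153561108-153567890) and S100A14 (chr1:153614255-153616986), all 3 on the minus strand. The 250 bases before its start, at chr1:153357604-153357853 of GRCh38.p14 (RefSeq, plus strand), are shown because S100A9 defines the cells. Capitals mark a TATA box, which begins 29 bases before the start, and an ETS core on the other strand, 76 bases before it.

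S100A9: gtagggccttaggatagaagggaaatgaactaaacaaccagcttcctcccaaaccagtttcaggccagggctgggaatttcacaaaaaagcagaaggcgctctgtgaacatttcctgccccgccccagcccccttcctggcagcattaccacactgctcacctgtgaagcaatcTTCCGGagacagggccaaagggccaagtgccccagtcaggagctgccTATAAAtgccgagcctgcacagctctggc

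Among 27305 RefSeq promoters of that length, searched on both strands, 11.13% held the TATA box TATAAA and 14.83% held the ETS core CCGGAA. The AP-1 motif TGANTCA, found in 6.596% of promoters, had no match in this window. Nor had the C/EBP motif TTGCNNAA, found in 9.127%. A match is a description of letters only.

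Positive cells occurred in each HTO2 pair. HTO2+HTO5 had 26 positive cells of 507 (5.128%; exact Clopper-Pearson 95% interval 3.377 to 7.424%), and HTO2+HTO6 had 39 of 371 (10.51%; 7.583 to 14.09%). HTO2+HTO7 had 32 of 352 (9.091%; 6.301 to 12.59%), HTO2+HTO8 had 14 of 185 (7.568%; 4.199 to 12.37%) and HTO2+HTO9 had 24 of 241 (9.959%; 6.485 to 14.45%). The intervals of the 5 pairs overlap, except that of HTO2+HTO5 with HTO2+HTO6. All intervals cover counting error only, since 1 library was made and PCR copies, droplets and tumours were not repeated.

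Over the 5 pairs, 8.152% of cells were positive (6.879 to 9.576%), against 35 of 1338 cells (2.616%; 1.829 to 3.619%) in the 8 pairs without HTO2, at median depths of 8918 and 8255 UMIs. After each cell was thinned to 4000 UMIs, 78 of 1573 cells (4.959%) and 14 of 1235 (1.134%) were positive, with 83 and 103 shallower cells left out. No cell type of this library is known to lack S100A9, so the share that free RNA alone gives was not measured. In the HTO2 pairs, positive cells were deeper than zero cells: their median was 10276.5 UMIs against 8527 in HTO2+HTO5 and 12319.5 against 9265 in HTO2+HTO9. Just inside the threshold were 72 cells with 1 S100A9 UMI, and just outside it the 1521 cells with 0. A further 41 cells had 2 to 4 UMIs, 4 had 5 to 9 and 18 had 10 or more.

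The S100A9 level of the pairs followed few cells. Summed over all cells of a pair, S100A9 had 43 UMIs in HTO2+HTO5 (8.501 CPM, UMIs per 1000000 UMIs of the pair; exact Poisson 95% interval 6.152 to 11.45), 424 in HTO2+HTO6 (115.6 CPM; 104.9 to 127.2) and 428 in HTO2+HTO7 (120.2 CPM; 109.1 to 132.1). HTO2+HTO8 had 211 (114.0 CPM; 99.17 to 130.5) and HTO2+HTO9 had 729 (282.8 CPM; 262.7 to 304.1). The single cell with most S100A9 held 11, 170, 108, 180 and 340 of these UMIs, in the same order. HTO2+HTO9 was highest and HTO2+HTO5 lowest, and the intervals of the 3 pairs between them overlap.

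**Figure D1:**
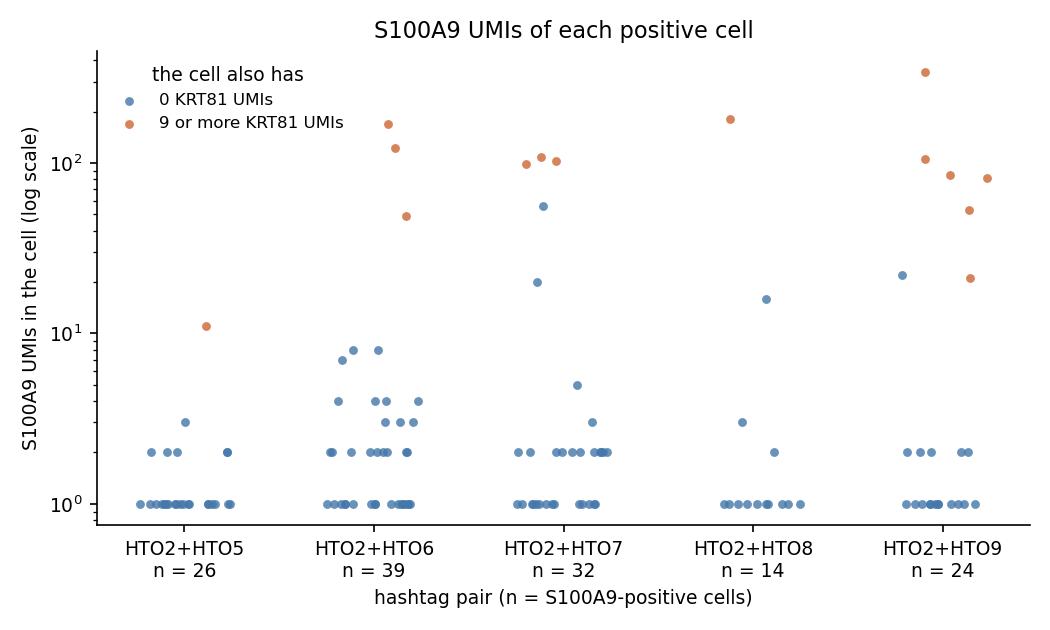
S100A9 UMIs (vertical axis, log scale) of each of the 135 positive cells, by hashtag pair; orange points also had 9 or more KRT81 UMIs and blue points had 0. In every pair most cells sit at 1 or 2 UMIs, and the orange points lie at 11 to 340 UMIs.

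The positive cells fell into distinct kinds. Of the 135, 14 had 9 to 135 UMIs of KRT81, a hair-type keratin, and the other 121 had 0. No cell of the HTO2 pairs had 3 to 8 KRT81 UMIs; of the zero cells, 18 had 1 and 2 had 2. The 14 are called KRT81 cells below (5 or more KRT81 UMIs), a split made after the values were seen, so nothing about it is tested. KRT81 (chr12:52285913-52291534, minus strand) belongs to a keratin family with near-identical copies, so which copy the reads came from is uncertain.

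The 14 KRT81 cells held 1525 of the 1835 S100A9 UMIs of the HTO2 pairs (83.11%). HTO2+HTO5 had 1 KRT81 cell, with 11 S100A9 UMIs. HTO2+HTO6 had 3, with 170, 122 and 49, and HTO2+HTO7 had 3, with 108, 102 and 98. HTO2+HTO8 had 1, with 180, and HTO2+HTO9 had 6, with 340, 105, 85, 81, 53 and 21. KRT81 cells were thus 0.1972% of cells in HTO2+HTO5 (0.004994 to 1.094%) and 2.49% in HTO2+HTO9 (0.919 to 5.34%), with overlapping intervals. Without them the S100A9 level was 6.346, 23.25, 34.44, 16.94 and 18.06 CPM in HTO2+HTO5 to HTO2+HTO9, so that HTO2+HTO7 and not HTO2+HTO9 was highest. The share of positive cells without them was 7.369%, against 2.399% in the pairs without HTO2.

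KRT81 cells were not particular to HTO2. The pairs without HTO2 held 4, in HTO3+HTO6 (80 S100A9 UMIs), HTO4+HTO6 (46), HTO4+HTO7 (5) and HTO4+HTO9 (0). Over all pairs, 16 of the 20 cells with 10 or more S100A9 UMIs were KRT81 cells.

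**Figure D2:**
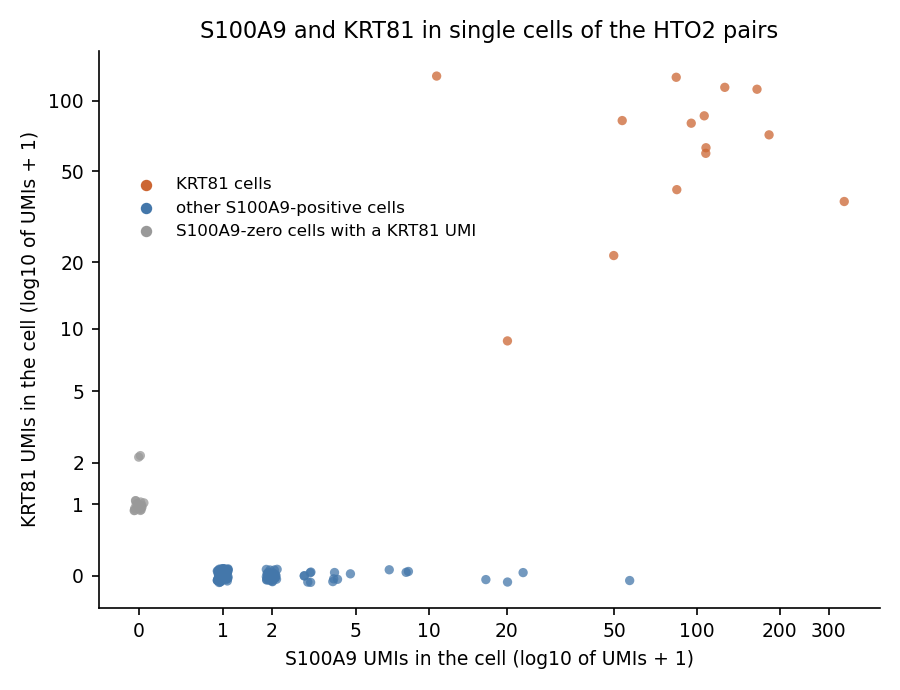
KRT81 UMIs against S100A9 UMIs per cell (both axes log10 of UMIs + 1, ticks in UMIs, points jittered) for the HTO2 pairs; zero cells without KRT81 are not drawn. The 14 KRT81 cells stand apart at 9 or more KRT81 UMIs, while the other 121 positive cells lie at 0 KRT81 UMIs over 1 to 56 S100A9 UMIs.

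Positive cells were epithelial by their markers and not leukocyte-like, which the sorting and the human reference largely set beforehand. KRT18, a keratin of simple epithelia, had a UMI in 135 of 135 positive cells (97.30 to 100%) and in 98.75% of zero cells. EPCAM, an epithelial adhesion molecule, had a UMI in 110 of 135 (81.48%; 73.89 to 87.64%) and in 74.03% of zero cells (71.75 to 76.22%). By pair, EPCAM was found in 76.92, 82.05, 71.88, 92.86 and 91.67% of positive cells and in 78.79, 66.87, 70.94, 80.70 and 73.73% of zero cells, in the order HTO2+HTO5 to HTO2+HTO9. Of the 12 epithelial markers, 3 or more were found in 133 of 135 positive cells (98.52%) and in 95.79% of zero cells.

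PTPRC had a UMI in 1 of 135 positive cells (0.7407%; 0.01875 to 4.058%), a cell of HTO2+HTO9, and in 5 of 1521 zero cells (0.3287%; 0.1068 to 0.7655%). It was 0 in the other 4 pairs. A count of 0 is taken to allow 3 cells of the total, a limit on cells with a UMI and not on cells that express the gene: up to 11.54% in HTO2+HTO5, 7.692% in HTO2+HTO6, 9.375% in HTO2+HTO7 and 21.43% in HTO2+HTO8. LYZ had a UMI in 9 of 135 positive cells (6.667%; 3.094 to 12.28%) and in 6.18% of zero cells (5.023 to 7.51%). LYZ was in 3.846, 7.692, 6.25, 0 and 12.5% of positive cells by pair, against 6.445, 7.229, 7.188, 3.509 and 4.608% of zero cells. By level it was higher in positive cells of HTO2+HTO9, at 41.1 against 6.328 CPM (ratio 6.496, 2.923 to 14.53). That level came from 15 UMIs in 3 cells. In the other 4 pairs the level of LYZ was lower in positive than in zero cells. The neutrophil receptor gene CSF3R and the granulocyte gene S100A12 had 0 UMIs in positive and in zero cells. No positive cell had 3 or more of the 13 neutrophil markers, and 2 of 135 had 3 or more of the 14 monocyte and macrophage markers (1.481%), against 1.249% of zero cells.

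The broad leukocyte list was an exception in the KRT81 cells. Of its 10 genes, 3 or more were found in 10 of 14 KRT81 cells (71.43%; 41.9 to 91.61%), in 2 of the other 121 positive cells (1.653%) and in 0.9204% of zero cells. The summed level of the list was 99.27 to 770.6 CPM over the pairs in KRT81 cells and 52.13 to 85.05 CPM in zero cells. Its UMIs in KRT81 cells were led by SRGN, a proteoglycan of secretory granules, found in 12 of 14 KRT81 cells, and LCP1, the actin bundler L-plastin, found in 11 of 14. PTPRC, CD53, CORO1A, CYBB and CD52 were at 0 in all 14, as were 13 of the 14 monocyte and macrophage markers. KRT18 and EPCAM were found in 14 of 14.

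S100A8, the usual partner, did not accompany S100A9 in most cells. It had 50 UMIs in the HTO2 pairs, all in 6 KRT81 cells, and 44 of them in 1 cell of HTO2+HTO9 that also had the most S100A9 (340 UMIs). The other 121 positive cells had 0 S100A8 UMIs and so did the 1521 zero cells, which by the same limit of 3 cells allows up to 2.479% and 0.1972% of cells with a UMI.

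The positive cells of each pair were then compared with the zero cells of the same pair over all other genes. There were 4 pairs with 20 or more positive cells (HTO2+HTO8 had 14 and was not compared). A gene was read at a mean of 20 CPM or more, and counted as past the fold where summed CPM differed 2-fold or more in the same direction in all 4 pairs. There is no test, because cells of 1 library are not replicates. Of 5637 genes, 4 were higher (0.071%) and 3 were lower (0.0532%). Higher were KRT81, S100A14, S100A2 and UTP20, and lower were TM4SF18, ANKRD1 and CST1. The mean is over both arms, and KRT81 and S100A14 reached 20 CPM only through the positive cells, with 1.047 to 2.198 and 7.555 to 18.08 CPM in the zero cells. UTP20 lay at the minimum, with a mean of 20.02 CPM. Its zero cells had 16.97, 15.7, 15.43 and 21.69 CPM, so it too reached the minimum only through the positive cells.

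S100A14, a calcium-binding S100 protein of epithelia, had 42.16 CPM in positive and 8.17 in zero cells of HTO2+HTO5, 111.8 and 8.479 in HTO2+HTO6, 163.9 and 7.555 in HTO2+HTO7, and 315.1 and 18.08 in HTO2+HTO9. Its ratios were 5.161 (exact 95% interval 2.46 to 10.06), 13.18 (8.158 to 21.76), 21.69 (13.36 to 36.3) and 17.43 (12.07 to 25.65). S100A2, an S100 gene of basal and squamous epithelia, had ratios of 3.365 (2.525 to 4.423), 3.508 (2.773 to 4.419), 4.958 (3.695 to 6.615) and 18.37 (14.64 to 23.21) in the same order. The ratios of both genes lay above 2 in every pair, with the lowest in HTO2+HTO5.

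UTP20, a factor of small ribosomal subunit processing, had ratios of 2.278 (1.094 to 4.295), 2.109 (1.121 to 3.765), 2.024 (0.9797 to 3.86) and 2.653 (1.509 to 4.516), so its distance from 1 was within counting error in HTO2+HTO7. CST1, a secreted cysteine protease inhibitor, had 28.11 CPM in positive and 91.96 in zero cells of HTO2+HTO5, 14.49 and 90.45 in HTO2+HTO6, 2.601 and 24.55 in HTO2+HTO7, and 2.74 and 53.33 in HTO2+HTO9. Its ratios ran from 0.05138 (0.00129 to 0.2919) in HTO2+HTO9 to 0.3056 (0.1311 to 0.6076) in HTO2+HTO5. TM4SF18, a tetraspanin-like membrane protein, had ratios of 0.4091 (0.1751 to 0.8156), 0.442 (0.2164 to 0.8118), 0.3935 (0.1772 to 0.763) and 0.2922 (0.07779 to 0.7767). ANKRD1, a target of mechanical and YAP signalling, had 1 UMI in the positive cells of HTO2+HTO5 and of HTO2+HTO7, and 0 in the other compared pairs, against 41 to 220 UMIs in the zero cells.

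The higher genes of this comparison rested on the KRT81 cells. Without them, 3 pairs kept 20 positive cells (HTO2+HTO9 fell to 18), and of 5631 genes 1 was higher (0.0178%) and 7 were lower (0.124%). None of the 4 higher genes was past the fold any longer: KRT81 itself had 0 UMIs in the remaining positive cells, S100A2 had ratios of 0.9606, 0.1532 and 0.3976, and S100A14 had 1.82, 0.6128 and 3.015. UTP20 had 2.41, 1.158 and 0.8439. The mean levels of KRT81, S100A14 and UTP20 were then 1.558, 8.517 and 16.48 CPM, under the minimum, so of the 4 only S100A2 was still read. Of the lower genes, TM4SF18 (0.4328, 0.4036 and 0.4923) and CST1 (0.3233, 0.2011 and 0.1325) were past the fold in both comparisons. CST1 was patchy: 176 of 1521 zero cells had a UMI, with at most 78 in 1 cell. Its 8 UMIs in the positive cells of HTO2+HTO5 came from 1 cell, so its counting intervals are too narrow for differences between cells. Since 3 pairs must agree in place of 4, the rule is looser by construction.

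**Figure D3:**
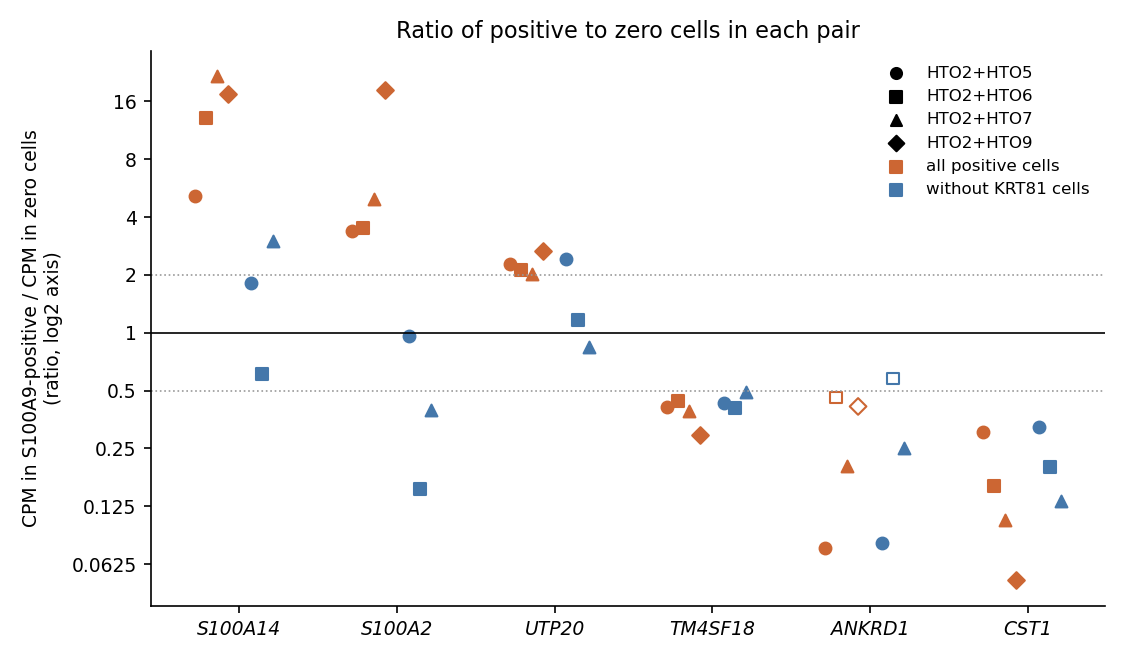
Ratio of summed CPM in S100A9-positive to zero cells (log2 axis, dotted lines at 2 and 0.5) for 6 of the 7 genes past the fold, by pair; orange is all positive cells and blue is without the KRT81 cells, and open symbols had 0 UMIs in positive cells and are upper bounds. S100A14 and S100A2 lie above 2 in every pair in orange and, in blue, only S100A14 in HTO2+HTO7 does (3.015), while TM4SF18 and CST1 lie under 0.5 in both.

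XDH, xanthine dehydrogenase, was the gene higher without the KRT81 cells. It had 33.45 CPM in positive and 13.62 in zero cells of HTO2+HTO5, 127.3 and 42.08 in HTO2+HTO6, and 87.87 and 31.79 in HTO2+HTO7, ratios of 2.457 (1.075 to 4.957), 3.025 (2.135 to 4.226) and 2.764 (1.737 to 4.261). Beside TM4SF18 and CST1, CNTNAP3B, USP42, MUC5B, HMOX1 and CD3EAP were lower. Of these, HMOX1, the haem oxygenase induced by oxidative stress, had ratios of 0.2125 (0.02552 to 0.7797), 0.2068 (0.00511 to 1.22) and 0.1914 (0.00476 to 1.113), from 2, 1 and 1 UMIs in positive cells. MUC5B, a secreted gel-forming mucin, had 0.4753 (0.1726 to 1.051), 0.3115 (0.1407 to 0.6014) and 0.4735 (0.1707 to 1.059).

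The gene lists were read in the 90 positive cells without KRT81 of HTO2+HTO5 (25), HTO2+HTO6 (36) and HTO2+HTO7 (29); those of HTO2+HTO8 and HTO2+HTO9 were not compared. Of 16 acute-phase and defence genes read, 0 passed the fold, and 8 had a ratio above 1 in each of 3 pairs and 0 below 1 in each, against 540 above and 1193 below among all 5631 genes. The median log2 ratio of the list was 0.54, 0.50 and 0.60 in HTO2+HTO5, HTO2+HTO6 and HTO2+HTO7, against -0.036, -0.13 and -0.052 over all genes. SAA1, an acute-phase apolipoprotein, had ratios of 1.464, 2.225 and 1.655, SOD2, the mitochondrial superoxide dismutase, 1.333, 1.507 and 1.5, and LCN2, the iron-siderophore binder lipocalin 2, 0.9955, 1.413 and 1.548. These ratios are under the 2-fold rule in at least 2 pairs each.

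Secretory and mucin genes went the other way in part: of 10 read, 2 were past the fold downward (CST1 and MUC5B), 6 were below 1 in each pair and 0 above, and the list medians were -0.14, -1.81 and -1.58. Of the 5 MHC class II genes read, 4 were above 1 in each pair and 0 passed the fold. HLA-DRA had ratios of 2.357, 4.964 and 1.241, and CD74, the invariant chain, 1.348, 1.895 and 1.014. IFNg-type genes (20 read; 5 above and 2 below 1 in each pair), TNF-type chemokine and adhesion genes (14 read; 3 and 0), NF-kB feedback genes (22 read; 4 and 5) and MHC class I genes (17 read; 5 and 3) had 0 members past the fold. Of the 9 regulators and receptors linked to S100A8 and S100A9, 2 were above and 1 below 1 in each pair, and none passed the fold.

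Proliferation genes differed between pairs. The 22 genes of the G2 and M phases summed to 38.97 CPM in the 36 positive cells of HTO2+HTO6 without KRT81 against 1037.3 CPM in its zero cells, with a median log2 ratio of -2.97 over the 14 genes read. In HTO2+HTO5 the sums were 1089.0 and 1205.3 CPM and in HTO2+HTO7 1145.5 and 1174.5 CPM. TOP2A, the DNA topoisomerase of dividing cells, had 0 UMIs in those 36 cells against 551 in the zero cells of HTO2+HTO6, a ratio of at most 0.04504, and ratios of 1.386 and 0.8851 in HTO2+HTO5 and HTO2+HTO7. The S phase list, of which 9 genes were read, went another way: it summed to 862.3 CPM in positive and 604.8 in zero cells of HTO2+HTO5, 153.3 and 450.7 in HTO2+HTO6, and 250.6 and 480.1 in HTO2+HTO7. PCNA, the sliding clamp of DNA replication, had ratios of 1.704 (1.122 to 2.498), 0.4078 (0.161 to 0.8624) and 0.3077 (0.09862 to 0.7324). For S phase genes HTO2+HTO7 was thus on the side of HTO2+HTO6, while for G2 and M phase genes it was near its zero cells. Both lists were singled out after their values were seen.

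Some genes differed with the number of S100A9 UMIs per cell among the cells without KRT81, and others did not follow it. UMIs in cells with 1, 2 to 4 and 5 or more S100A9 UMIs (72, 41 and 8 cells) were set against those expected from zero cells of the same pairs. VIM, the mesenchymal filament protein vimentin, was at 0.8273, 0.6019 (670 UMIs against 1113.2 expected) and 0.243 (74 against 304.5; counting interval of the ratio 0.1908 to 0.3051) of expectation. SLPI, the secretory leukocyte protease inhibitor of mucosal epithelia, was at 1.885, 1.993 and 4.172 (150 against 35.95; 3.531 to 4.896). S100A14 also rose in these cells without KRT81, at 1.512, 3.063 and 10.12 (12 UMIs against 1.186, interval 5.227 to 17.67). It had UMIs in only 7, 2 and 3 cells of these bins, and 12 of its 14 UMIs in the middle bin came from 1 cell. LCN2 was at 1.233, 1.483 and 4.075 (585 against 143.6; 3.751 to 4.419). Other acute-phase and defence genes had no steady order over the bins: SAA1 was at 1.676, 1.398 and 1.316, CFB, complement factor B, at 1.372, 1.829 and 1.342, and RARRES1 at 1.277, 1.046 and 1.984. CST1 did not stay low: it was at 0.103, 0.2836 and 2.324 (18 UMIs against 7.746, 16 of them in 1 cell). KRT18 stayed near expectation, at 0.9796, 0.9293 and 1.087. Median depth rose over the same bins, from 8758 UMIs in zero cells to 9687.5, 10541.0 and 12817.0, and its part in these ratios was not tested.

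The 8 cells with 5 or more S100A9 UMIs and no KRT81 are few, and each can be given. HTO2+HTO6 had 3, with 8, 8 and 7 S100A9 UMIs beside 33, 23 and 31 LCN2 UMIs. HTO2+HTO7 had 3, with 56, 20 and 5 beside 245, 49 and 7 of LCN2. The cell of HTO2+HTO8 had 16 beside 28, and that of HTO2+HTO9 had 22 beside 169. The cells highest in S100A9 of these, with 56 and 22 UMIs, also had the most LCN2, while the zero cells had a median of 5 LCN2 UMIs and at most 291.

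Against the zero cells of the same pairs, summed over these 8 cells, 39 of 5450 genes were 4-fold or more higher (0.716%) and 109 lower (2.0%). Higher were HP, haptoglobin (26 UMIs in 4 of 8 cells against 1.42 expected), GPX2, a gut-type glutathione peroxidase (37 against 6.458, in 4 cells), and KRT23, an epithelial keratin (31 against 6.777, in 6 cells). S100A14 was higher as well (12 against 1.186, in 3 cells). The expected levels of HP and S100A14 were 11.46 and 9.573 CPM, under the minimum of 20 CPM. Both were thus read only because these 8 cells held them. XDH was there too (21 against 4.775, in 6 cells). SERPINA3 (116 against 37.52, in 7 cells) and MMP7 (102 against 29.61, in 5 cells) were 3.092 and 3.445 times expectation, short of 4-fold. Lower were the IFNg-induced chemokine genes CXCL9 (1 UMI against 22.7 expected) and CXCL11 (7 against 62.92), LGALS1, galectin 1 (11 against 98.08), and VIM. The related CXCL10 was at 0.4163 (96 against 230.6), with 61 of its UMIs in the HTO2+HTO9 cell. Zero cells held 5877.9 and 6416.3 CPM of it in HTO2+HTO8 and HTO2+HTO9, and 78.34 to 275.7 CPM in the other pairs. Each of those high pairs gave 1 of the 8 cells, so lower interferon chemokines are not shown for the 8 cells as a group. Of 17 acute-phase and defence genes, 3 were higher and 0 lower. With 8 cells a single cell carries much of a sum: 245 of the 585 LCN2 UMIs and 16 of the 26 HP UMIs came from 1 cell each.

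**Figure D4:**
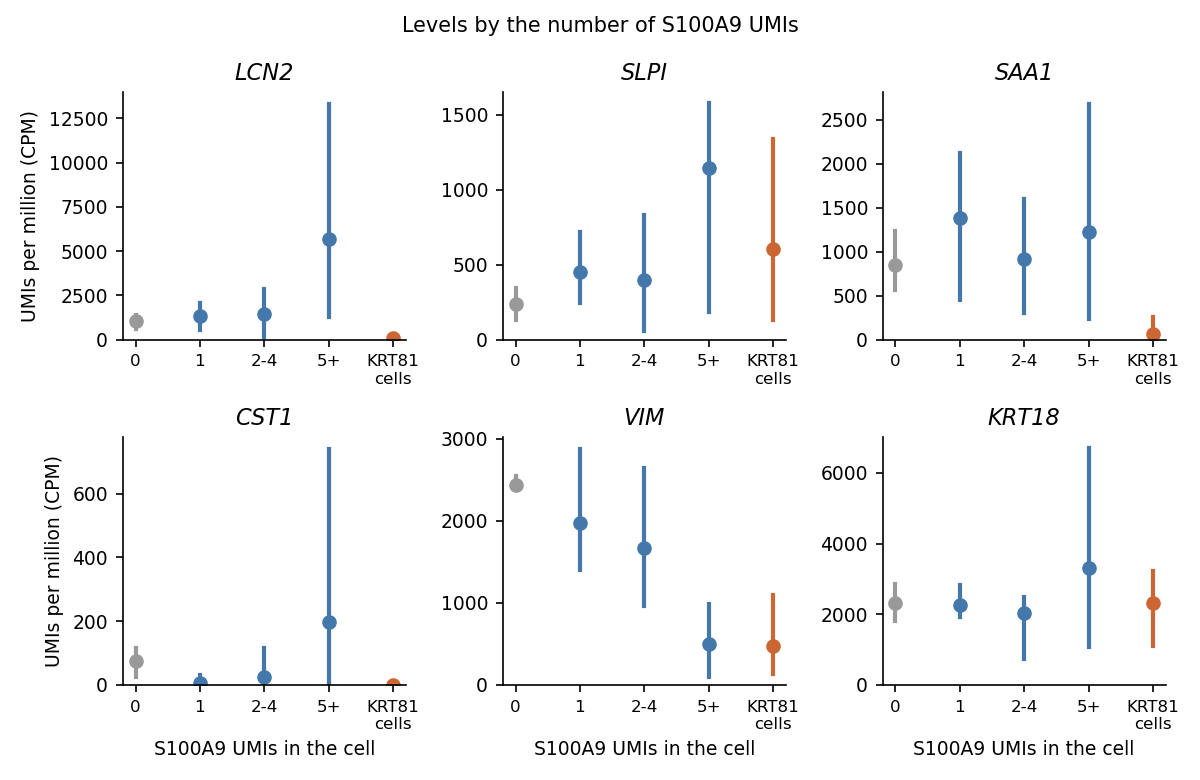
Level (CPM over the cells of a pair) of 6 genes in cells of the HTO2 pairs with 0, 1, 2 to 4 and 5 or more S100A9 UMIs without KRT81, and in KRT81 cells; points are means over pairs and bars run from the lowest to the highest pair. LCN2 and SLPI are highest in the cells with 5 or more S100A9 UMIs, VIM is lowest there and in KRT81 cells, and LCN2 and SAA1 are low in KRT81 cells. The bin of 5 or more UMIs has cells in 4 pairs, with 1 cell each in HTO2+HTO8 and HTO2+HTO9, and the other bins in 5 pairs. KRT81 cells are 1 cell each in HTO2+HTO5 and HTO2+HTO8.

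The KRT81 cells had a profile of their own. Their summed UMIs were set against those expected from zero cells of the same pairs, with 14 cells against 1521. Of 5853 genes, 336 were 4-fold or more higher (5.74%) and 305 lower (5.21%). KRT81 cells were chosen from the same counts, so these are descriptions. Genes were again read on the mean of both arms: 96 of the 336 higher genes and 305 of the 305 lower ones reached 20 CPM on the level expected from zero cells alone, so most higher genes were read only because KRT81 cells held them. Ratio intervals cover the counts of the KRT81 cells only.

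Several genes nearly absent from zero cells were found in most KRT81 cells. LDHB, the lactate dehydrogenase subunit of oxidative tissues, had 176 UMIs in 14 of 14 KRT81 cells and 7 UMIs in 7 of 1521 zero cells, while LDHA had 248 UMIs against 326.2 expected. KRT75, a keratin of the hair follicle, had 140 UMIs in 11 of 14 and 3 UMIs in the zero cells. KRT6B, a keratin of activated and squamous epithelium with near-identical copies, had 109 UMIs in 11 of 14 and 22 in the zero cells. FXYD3, a regulator of the sodium pump, had 84 UMIs in 13 of 14 and 15 in the zero cells, and SPTSSB, a subunit of serine palmitoyltransferase, 72 UMIs in 10 of 14 and 0 in the zero cells.

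MSMP, a secreted microseminoprotein, was uneven: its 1661 UMIs came from 6 of 14 cells, mostly from 1 cell each of HTO2+HTO6 (919), HTO2+HTO8 (455) and HTO2+HTO7 (283). S100A14 was found in 14 of 14 KRT81 cells and 114 zero cells (224 UMIs against 4.316 expected; ratio 51.9, 45.32 to 59.16). S100A2 was in 13 of 14 (534 against 18.07; 29.55, 27.09 to 32.16). S100A13 was at 4.332 of expectation and S100A4 at 0.1579, while S100A6 was at 1.094 and S100A10 at 1.199 of expectation. Of 28 squamous and keratinocyte genes, 6 were read. Besides KRT6B and KRT75, KRT17, a keratin of basal cells, had 15 UMIs against 2.698 expected and SERPINB3, a squamous serpin, 17 against 0.7358. These 4 were under 20 CPM in the zero cells and could be read only where KRT81 cells held them, so their number is no measure of the list.

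Epithelial markers were found in KRT81 cells at differing levels. KRT7, a keratin of ductal epithelia, had 560 UMIs against 55.33 expected (ratio 10.12, at least 9.3 by its interval), and CDH1, which encodes E-cadherin, had UMIs in 7 of 14 cells and in 15 of 1521 zero cells. EPCAM was at 2.266 (1.956 to 2.611) and KRT18 at 1.174 (1.1 to 1.252) of expectation, while the simple-epithelial keratin KRT8 was at 0.7555 (326 against 431.5; 0.6757 to 0.8421). The mesenchymal gene VIM was at 0.1389 (119 against 856.5; 0.1151 to 0.1663).

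Among the lower genes were some that nearly every zero cell expressed. CYBA, a subunit of the NADPH oxidase, had a UMI in 99.21% of zero cells and 16 UMIs in 7 of 14 KRT81 cells against 724.8 expected (0.02208; 0.01262 to 0.03585). WFDC2, the ovarian tumour marker HE4, had 1 UMI against 97.51 expected, PAX8-AS1 had 2 against 49.6, and VCAM1, a TNF-induced adhesion molecule, 1 against 173.5. RARRES1 had 3 against 252.8 and PLAT, tissue plasminogen activator, 5 against 286.6. PAX8, a transcription factor of Mullerian epithelium, had 0 UMIs, at 3.124 expected, so the depth is too low to read it.

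Several inflammatory genes were 4-fold or more lower in KRT81 cells, though in each list as many members or more were past the fold in neither direction. Of 16 acute-phase and defence genes read, 7 were lower (LCN2, SAA1, SAA2, CFB, WFDC2, RARRES1 and SERPINA3) and 1 higher (PI3, the elastase inhibitor elafin), with a list median log2 ratio of -1.84 against 0.24 over all genes. LCN2 had 34 UMIs against 409.2 expected (0.0831; 0.05755 to 0.1161), the opposite side of expectation from the other S100A9-rich cells. Of 8 MHC class II genes 4 were lower, and of 18 MHC class I genes 4 were lower, among them B2M (0.2424; 0.2197 to 0.2667). Of 17 TNF-type genes 6 were lower and 2 higher, and of 25 IFNg-type genes 5 were lower and none higher. Of 21 NF-kB feedback genes 1 was higher and 1 lower, and of 35 interferon-stimulated genes shared with type I interferon 6 were lower and none higher (median log2 ratio -0.24). Copies of HLA genes share reads, so single HLA values are uncertain.

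CXCL10, an interferon-induced T cell chemokine, nevertheless followed the pair in KRT81 cells. In zero cells its median was 0 per 10000 UMIs of the cell in HTO2+HTO5, HTO2+HTO6 and HTO2+HTO7, 58.87 in HTO2+HTO8 and 53.64 in HTO2+HTO9. The 7 KRT81 cells of the first 3 pairs had 0 to 4.003 per 10000. The cell of HTO2+HTO8 had 99.76, and those of HTO2+HTO9 had 88.07, 83.41, 63.42, 38.6, 25.99 and 0. So 5 of 6 cells in HTO2+HTO9 lay above every KRT81 cell of the first 3 pairs, and 1 did not. The interferon-induced GTPase gene GBP1 had 32.26 per 10000 in the KRT81 cell of HTO2+HTO8 and 4.609 to 37.0 in those of HTO2+HTO9, against medians of 25.67 and 23.08 in zero cells. IDO1, a tryptophan-degrading enzyme, was low by comparison: 1.985 per 10000 against a zero-cell median of 48.47 in HTO2+HTO8, and 0 to 7.4 against 20.86 in HTO2+HTO9. Within KRT81 cells IDO1 was higher in HTO2+HTO8 and HTO2+HTO9 (198.5 and 355.5 CPM) than in HTO2+HTO5 to HTO2+HTO7 (0, 10.17 and 0). The adhesion gene ICAM1 was lower in KRT81 cells than in zero cells of every HTO2 pair. KRT81 cells had 0, 91.53, 51.85, 248.2 and 106.6 CPM of it in HTO2+HTO5 to HTO2+HTO9. Zero cells had 290.8, 929.6, 902.5, 1008.9 and 1271.4 CPM in the same order. Zero cells differed little from HTO2+HTO6 to HTO2+HTO9, and HTO2+HTO5 had 1 KRT81 cell. These values therefore do not show whether ICAM1 followed the pair.

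**Figure D5:**
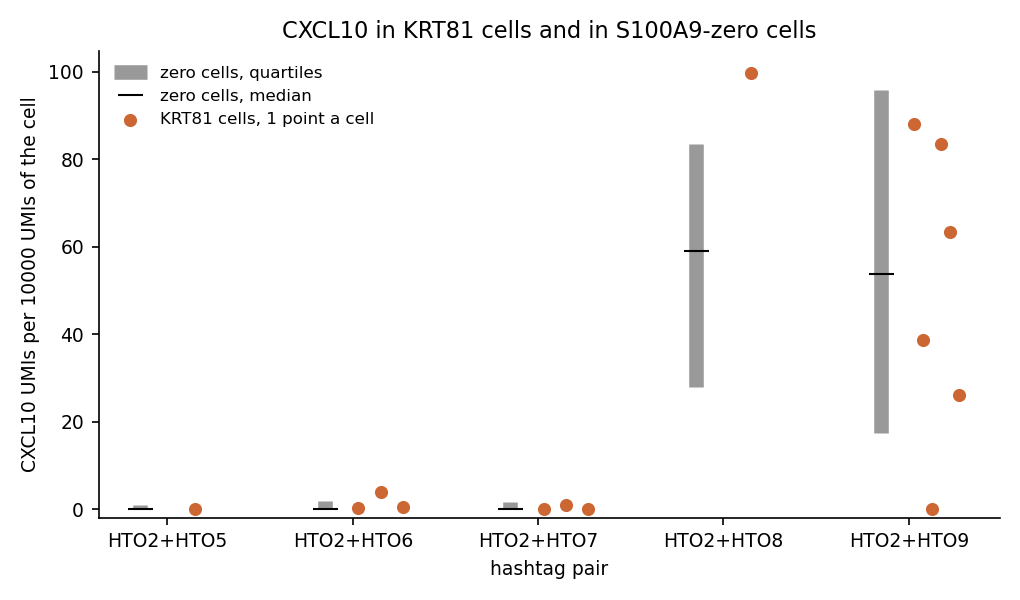
CXCL10 UMIs per 10000 UMIs of the cell by hashtag pair; grey bars span the quartiles and black ticks mark the median of S100A9-zero cells, and each orange point is 1 KRT81 cell. KRT81 cells are at 4.003 or less in the first 3 pairs, at 99.76 in HTO2+HTO8 and at 0 to 88.07 in HTO2+HTO9.

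KRT81 cells also differed in depth and hashtags. They had 10002 to 47461 UMIs (median 24847) against a median of 8758 in zero cells and 10205 in the other positive cells. Mitochondrial UMIs were 2.851 to 15.3% (median 6.985%) against a median of 14.85% in zero cells. Their second hashtag was a median of 8.076 times the third, against 19.33 in zero cells and 20.0 in the other positive cells. No doublet caller was run, and the part of joined droplets in these profiles was not tested. Set against the 187 zero cells with 15000 UMIs or more, 307 genes were higher and 291 lower, 263 and 258 of them shared with the sets above. With each cell thinned to 4000 UMIs, 703 were higher and 189 lower, of which 227 and 84 were shared. The 14 KRT81 cells then hold few UMIs of most genes, so counting error and the floor of 3 UMIs weigh on these counts. Thinning therefore does not show the part of depth alone.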

How the data were processed

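A pooled library of OVCAR5 tumour cells and its hashtag library were analysed as 1 matrix of 36601 genes in 9083 barcodes. The values are whole-number UMI counts, not normalised, as deposited; the authors' Cell Ranger was version 5.0.1 per the file headers but 2.1.1, with GRCh38, per the submitters' processing notes. No source read here names their gene annotation. Per the labels, CFP+ cells were sorted after tagging. The matrix held 64826985 gene UMIs; cells of the HTO2 pairs had a median of 8918. Columns of other samples numbered 0.

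Counts were summed per pair and class of cells and given as CPM. Ratios have exact conditional binomial intervals, shares exact Clopper-Pearson and counts exact Poisson intervals, all at 95%. An arm with 0 UMIs was set to 3 UMIs; where that put it above the other arm, the ratio was set to 1, a correction made after the values were seen. No ratio was given where both arms had 3 or fewer. Expected UMIs were the zero cells' share of UMIs in the same pair times the depth of the cells described. The fold rule was tested on simulated data.

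Members, 23 gene lists and alternatives were chosen with earlier results of these data known. Named genes were S100A9, S100A8, EPCAM, KRT18, PTPRC and LYZ, genes past the fold, and list members past it or highest in level. Genes named for KRT81 cells and for the 8 cells with 5 or more S100A9 UMIs were chosen after their values were seen, by ratio and counts; the planned bins of 5 to 9 and 10 or more UMIs were joined because KRT81 cells fill the upper bin. Scripts used scipy 1.17.1 and numpy 2.4.6 for intervals and sums, and pandas 2.3.3 and matplotlib 3.10.9 for tables and plots, under Python 3.11.15.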

Additional observations from a re-analysis of the deposited data

Results flagged for a closer look

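Barcodes of the HTO2 pairs with over 20% mitochondrial UMIs, which no comparison used, also held S100A9: 145 UMIs, with 92 of 2148 barcodes positive (4.283%; 3.466 to 5.227%). Their median was 4542 UMIs, against 8918 in the cells kept. None of them was a KRT81 cell, and a count of 0, taken to allow 3 barcodes, leaves up to 0.1397% (14 of 1656 cells kept, 0.8454%; 0.4629 to 1.414%).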

How the results depend on the processing

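No paired analysis was possible because the labels give the hashtag pairs no replicate numbers and the cells come from 1 library. Main counts were 4 genes higher and 3 lower. They became 16 and 15 at a fold of 1.5, and 3 and 1 at a fold of 3. At a mean of 5 CPM they were 15 and 9, and at 50 CPM 2 and 2. With no minimum they were 24 and 9, and 8 list members passed in place of 4. Settings that leave 1 or 2 pairs to agree call more genes by construction: 146, 390 and 40 list members for 2 or more S100A9 UMIs, 33, 108 and 15 after thinning to 4000 UMIs, and 104, 338 and 53 in cells at or above the median depth. A limit of 50% mitochondrial UMIs gave 4 higher and 1 lower, and a hashtag ratio of 8 gave 3 higher and 5 lower. The mean over cells gave 1 higher, 3 lower and 2 list members. Leaving out the cell with most UMIs of each gene gave 0 higher and 14 lower. Positive cells are fewer than zero cells and lose a larger share of their UMIs, so this setting lowers ratios by construction. Leaving out a pair gave 3 (without HTO2+HTO9) to 23 (without HTO2+HTO5) higher, 3 to 7 list members, and 6 to 7 lower. Added after seeing the data, leaving out KRT81 cells gave 1 higher, 7 lower and 2 list members, and keeping the floor of 3 UMIs where it turns a direction gave 5 higher, the fifth being MSMP. Reversals were UTP20 after thinning (median log2 ratio -0.39) and S100A2 without KRT81 cells (-1.33). Of 643 single-gene values under alternatives, 547 moved by less than the spread over pairs and 94 by more. Positive cells with 5 or more S100A9 UMIs, and the filter of 1000 genes and 10% mitochondrial UMIs, left no pair with 20 positive cells, so they gave no gene counts.

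Shares of positive cells were 4.959% and 1.134% (HTO2 pairs and other pairs) after thinning and 11.91% and 3.636% under the strict filter. Among positive cells, EPCAM was in 67.95% after thinning and 95.45% at 5 or more UMIs, LYZ in 13.64% at 5 or more UMIs, and PTPRC in 0% under each of these, at 2 or more UMIs and under the strict filter.

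For KRT81 cells, where every alternative was chosen after seeing the data, the 336 higher and 305 lower genes became 1306 and 852 at 2-fold, 122 and 116 at 8-fold, 151 and 136 at 50 CPM, 703 and 189 after thinning, and 170 and 497 without the cell with most UMIs of each gene; with KRT81 cells of all pairs they were 286 and 280, and leaving out a pair gave 326 to 376 and 300 to 330. Leaving out the top cell of each gene lowers ratios by construction, since 14 KRT81 cells stand against 1521 zero cells. Thinning leaves few UMIs per gene in the KRT81 cells, so counting error is larger there. At these depths genes under a mean of 20 CPM were not read.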
